A study of Bos taurus with 12 samples.

Results

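De novo purine synthesis is the route by which a cell builds purine nucleotides from small precursors, and its 10 genes were followed in calf liver. They were taken by a list of names (PPAT, GART, PFAS, PAICS, ADSL, ATIC, IMPDH1, IMPDH2, GMPS and ADSS2, which is also called ADSS) that uses no measured value. All 10 were found among the 30336 gene IDs counted, of which 21227 had at least 1 read and 13212 passed the filter on low counts and were tested, the 10 genes included. Liver was taken by puncture biopsy from Holstein heifer calves at 4 d of age and its polyadenylated RNA was sequenced, with 1 library labelled for each of 12 calves. The dams of 6 calves had been fed a control close-up diet without added Met (CON), and those of the other 6 the same diet with ethyl-cellulose rumen-protected Met (MET) for the last 28 d before calving. After birth all calves were managed alike and took the same amount of colostrum, which came from their own dams. The comparison asks whether the Met supply of the dam in late gestation went with a different abundance of these mRNAs in the liver of the newborn. A biopsy holds every cell type of the tissue, and mRNA abundance is neither enzyme activity nor flux.

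The pathway assembles the purine ring stepwise on phosphoribosyl pyrophosphate (PRPP), drawing on glutamine, glycine, aspartate, bicarbonate and formyl groups carried by folate, and ends at inosine monophosphate (IMP). From IMP, a branch through IMPDH and GMPS leads to GMP and another through ADSS and ADSL leads to AMP. Liver is a main site of this synthesis, and the folate-bound carbon it uses also feeds the regeneration of Met.

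The libraries held 8277789 to 10397604 counted reads. Before averaging, the libraries were compared in pairs. The counts of CON replicates 1 and 4 lay close to sampling noise, at a mean chi-square of 1.33 per gene, as did those of MET replicates 1 and 3 at 1.24, whereas the next closest of the other pairs of libraries was at 25.1. Each of these pairs was therefore counted as 1 sample, written CON1+4 and MET1+3, and means and SD are over n = 5 samples per diet. Tests were made over the 12 libraries as labelled and again over the 10 samples, where paired libraries had their reads added up. All CON libraries carried one first index sequence and all MET libraries another on a single lane, so index and diet cannot be told apart. Levels are CPM (reads of a gene relative to all reads counted, scaled by TMM factors so that most genes match between libraries) or, to compare genes with each other, FPKM (CPM per kilobase of counted exon). The labelled tissue was checked by its markers, and ALB, which codes for serum albumin, was the most abundant of the 5 hepatocyte markers with a mean level of 24820 FPKM.

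All 10 genes were detected in every library, at levels that spanned 24.5-fold in FPKM. At the top in mean FPKM were ATIC, whose protein catalyses the last steps to IMP, ADSL, whose lyase acts in both the common route and the AMP branch, and IMPDH2. Their levels were 31.3 ± 3.18 FPKM for ATIC, 30.2 ± 4.32 FPKM for ADSL and 28.2 ± 5.69 FPKM for IMPDH2 (SD over the 10 samples). These 3 levels were not separated beyond their spread, since ATIC was above ADSL in 7 of 10 samples and ADSL above IMPDH2 in 7. IMPDH2 was above PAICS in 10 of 10 samples. PAICS, GMPS and GART formed a middle group at 11.9 ± 1.82, 11.2 ± 1.91 and 10.7 ± 1.68 FPKM, and neighbours within it were in this order in 5 of 10 samples. PPAT, which codes for the amidotransferase of the committed step, followed at 8.18 ± 0.824 FPKM, below GART in 10 of 10 samples and above the median of all tested genes of 5.14 FPKM. ADSS2 was at 4.59 ± 0.680 FPKM, below PPAT in 10 of 10 samples, and exceeded IMPDH1 at 3.36 ± 0.841 FPKM in 8. PFAS, which adds the second glutamine nitrogen on the way to the ring, was the lowest at 1.28 ± 0.312 FPKM, below IMPDH1 in 10 of 10 samples, with 37 to 88 reads per library. Reads that matched several places were not counted, so a gene with near-identical copies elsewhere in the genome can be undercounted in this order by an amount not measured here.

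**Figure D1:**
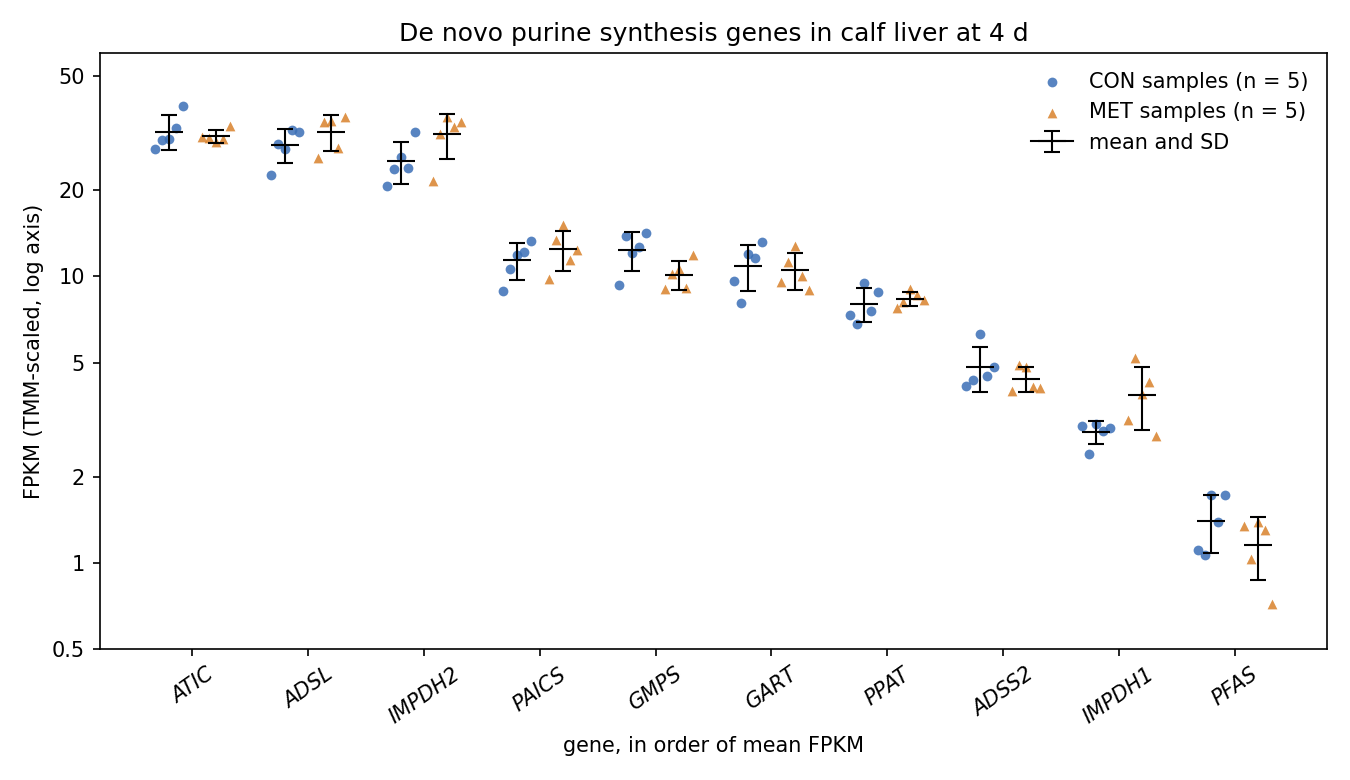
Level of each gene in FPKM (log axis) in the 5 CON samples (circles) and 5 MET samples (triangles), with the mean and SD of each diet and the genes in order of mean FPKM. ATIC, ADSL and IMPDH2 lie together at the top, PFAS lies lowest at 1.28 FPKM, and the diets overlap for every gene.

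The 10 genes differed among calves within each diet. Their summed level was lowest in CON1+4 at 310.2 CPM and highest in CON6 at 438.5 CPM, both from the CON diet. The sum averaged 374.3 ± 47.8 CPM in CON and 384.5 ± 36.5 CPM in MET (SD, n = 5 each). In CON1+4 all 10 genes were below their own mean over the samples, and in CON2 and MET1+3 it was 9 of 10. By contrast 9 of 10 genes were above their mean in CON6 and 8 of 10 in MET4. Samples at either end of this range thus occurred in both diets. The coefficient of variation over the 10 samples of both diets was smallest for PPAT (10.1%) and ATIC (10.1%) and largest for PFAS (24.3%) and IMPDH1 (25.0%). It includes differences between the diet means, as well as counting noise. PFAS and IMPDH1 had the fewest reads of the 10 genes (37 to 88 and 49 to 136 per library).

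**Figure D2:**
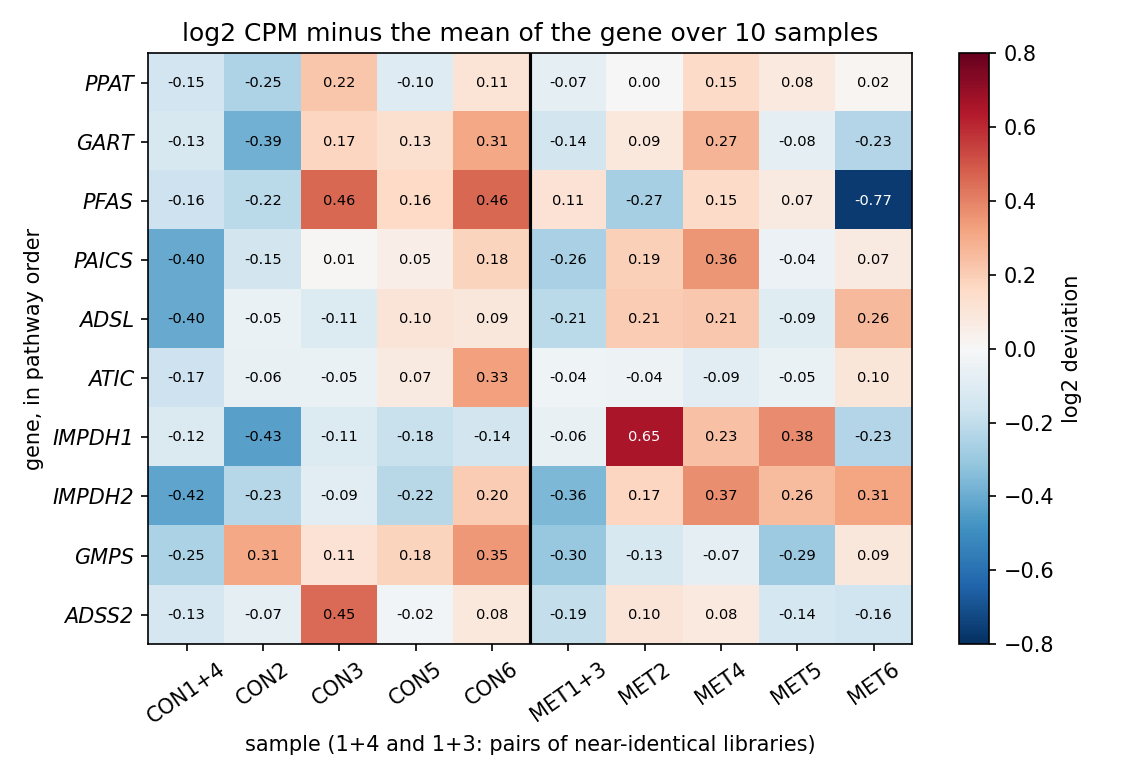
Deviation of log2 CPM from the mean of the gene over the 10 samples, with samples in columns (CON left of the line, MET right) and genes in rows. CON1+4 is below the mean for 10 of 10 genes and CON6 above it for 9, and PFAS in MET6 is the farthest below its mean at −0.77.

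None of the 10 genes passed the test between MET and CON at an FDR of 0.10. Mean CPM was higher in MET for PPAT, PAICS, ADSL, IMPDH1 and IMPDH2, and lower for the other 5, GART, PFAS, ATIC, GMPS and ADSS2, though the fitted sign of GART turned with the trend on gene length removed or without CON6, and that of ATIC with scaling by library size only or without CON6. The median log2 fold change of the 10 genes was 0.02 over the 12 libraries and 0.0055 over the 10 samples, beside −0.0031 and −0.0028 for all tested genes. In the GMP branch both IMPDH genes averaged higher in MET and GMPS lower. In tissue taken whole, fewer cells of a type and less RNA per cell cannot be told apart, which holds for every difference given here.

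With the quasi-likelihood test of edgeR and Benjamini-Hochberg adjustment over all genes tested, 0 of the 10 genes passed over the 12 libraries, where 583 of 13212 genes (4.41%) did, 276 of them higher in MET (2.09%) and 307 lower (2.32%). With scaling by library size only, 71 genes were higher and 36 lower. Over the 10 samples the same test passed 0 of 13242 genes (0%), the lowest adjusted p being 0.156. DESeq2 and voom also passed 0 of the 10 genes over the 12 libraries, where 1314 of 12695 and 556 of 13212 genes in all passed. Over the 10 samples DESeq2 passed 0 of the 10, where 639 of 11187 genes in all passed. An unadjusted p under 0.05 was found for 1 of the 10 genes, IMPDH1, in either fit, beside 20.5% of all tested genes over the 12 libraries and 16.3% (2165 genes) over the 10 samples. No gene of the 10 had MET and CON samples that did not overlap. Among all tested genes 1.94% had every MET sample above every CON sample and 1.77% every one below. With shares this small, and with 4.41% of genes passing over the 12 libraries, 0 of 10 does not set these genes apart from the rest. The count of 583 was itself unsteady when a single library was left out. It became 26 without CON1 and 35 without CON4, 284 without CON3, 376 without CON6, 206 without MET1, 349 without MET2, 332 without MET3, 295 without MET4, 340 without MET5 and 216 without MET6, and the 0 over the 10 samples became 39 without MET1+3. A p above the threshold does not show that the diets were alike. The 95% confidence intervals of the 10 log2 fold changes reached 0.21 to 0.42 to either side over the 12 libraries and 0.24 to 0.47 over the 10 samples, and in either fit 0 of the 10 included a change as large as 1 or −1 on the log2 scale.

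**Figure D3:**
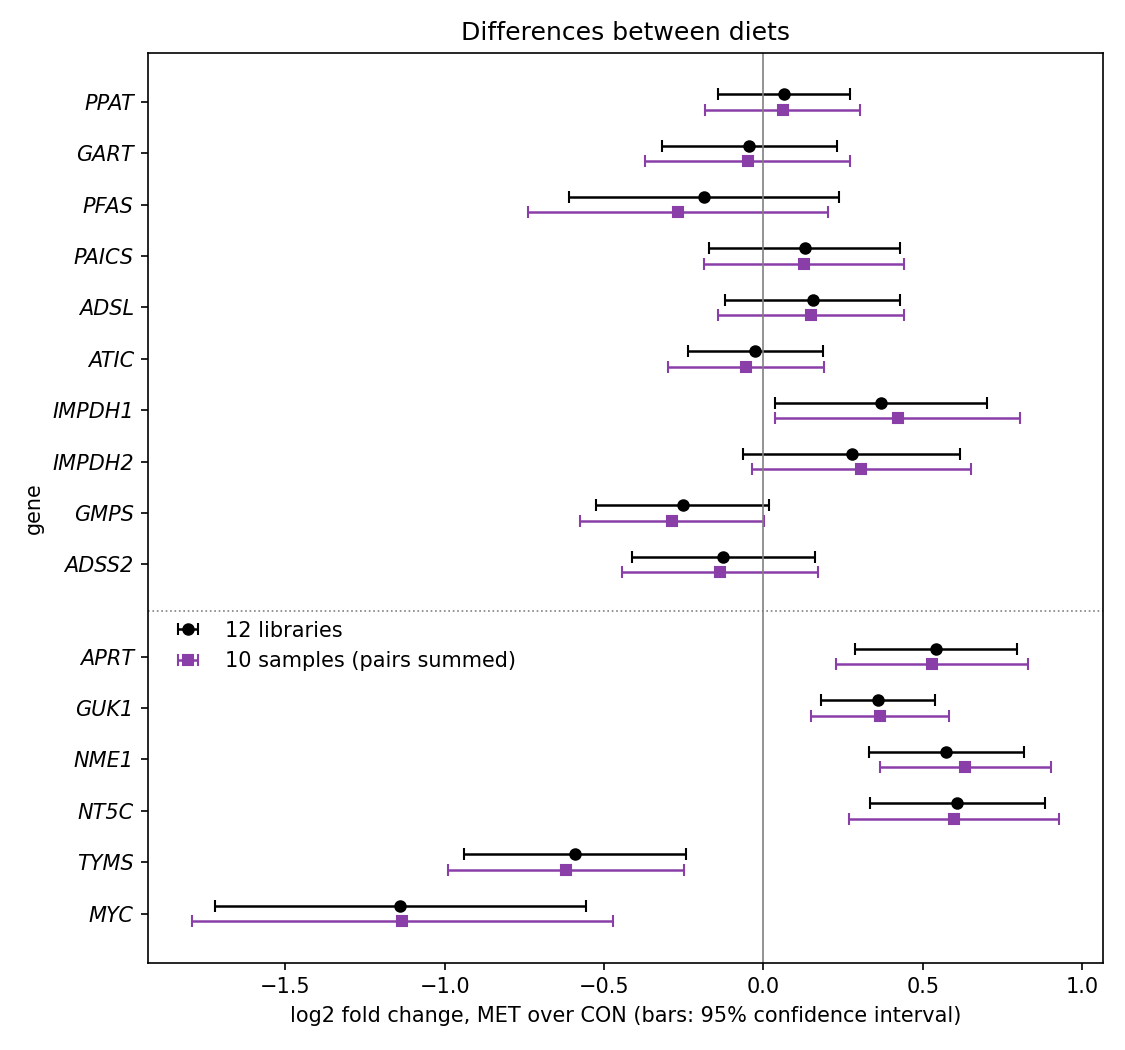
Log2 fold change of MET over CON with its 95% confidence interval, over the 12 libraries (black circles) and the 10 samples (purple squares), for the 10 de novo purine synthesis genes above the dotted line and, below it, the 5 other nucleotide genes and the regulator MYC that passed at an FDR of 0.10 over the 12 libraries. Of the 10, IMPDH1 alone has an interval without 0, and it did not pass after adjustment.

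PPAT codes for the enzyme that commits PRPP to purines and is inhibited by the end products of the pathway. It lies on chromosome 6 from 73446374 to 73487552 on the minus strand (UMD 3.1.1). In CON it was at 29.4 CPM in CON1+4, 27.5 in CON2, 38.2 in CON3, 30.5 in CON5 and 35.4 in CON6, and in MET at 31.1 CPM in MET1+3, 32.8 in MET2, 36.4 in MET4, 34.6 in MET5 and 33.2 in MET6. All MET samples fell inside the range of the CON samples, and CON2 and CON3 marked its ends. The log2 fold change was 0.06 (95% confidence interval −0.14 to 0.27) over the 12 libraries and 0.06 (−0.18 to 0.30) over the 10 samples. Over the 12 libraries it was 0.04 without CON1, 0.03 without CON2, 0.12 without CON3, 0.10 without CON6 and 0.04 without MET4, and 0.13 with the trend on gene length removed. Over the 10 samples it was 0.0088 without CON2, 0.03 without CON1+4 or MET4, and 0.13 without CON3 or with that trend removed.

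PAICS follows later in the pathway with an enzyme that joins a carboxylase and a ligase step, and it is the neighbour of PPAT on the opposite strand, at 73462268 to 73509809. Its level was 52.4 CPM in CON1+4, 62.6 in CON2, 69.8 in CON3, 71.9 in CON5 and 78.4 in CON6, against 57.9 CPM in MET1+3, 79.1 in MET2, 88.8 in MET4, 67.2 in MET5 and 73.0 in MET6. MET2 and MET4 exceeded every CON sample, and MET1+3 was lower than all CON samples but CON1+4. The log2 fold change was 0.13 (−0.17 to 0.43) over the 12 libraries and 0.13 (−0.19 to 0.44) over the 10 samples. Over the 12 libraries it was 0.06 without CON1, 0.05 without MET4 and 0.25 with the trend on gene length removed. Over the 10 samples it was 0.05 without CON1+4 or MET4, 0.20 without MET1+3 and 0.25 with that trend removed.

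The annotation counted gives PPAT 12 exon blocks and PAICS 18, and the 5′ end of PPAT at 73487552 is separated by 100 bases from an exon block of PAICS that starts at 73487653. From there 11 blocks of PAICS run away from PPAT, in the head-to-head layout for which the pair is known. The other 7 PAICS blocks, with 1445 exonic bases, lie upstream within the span of PPAT on the other strand. No exon block of one overlapped one of the other, and reads were counted by strand. The length by which the FPKM of PAICS was divided includes those 7 blocks.

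**Figure D4:**
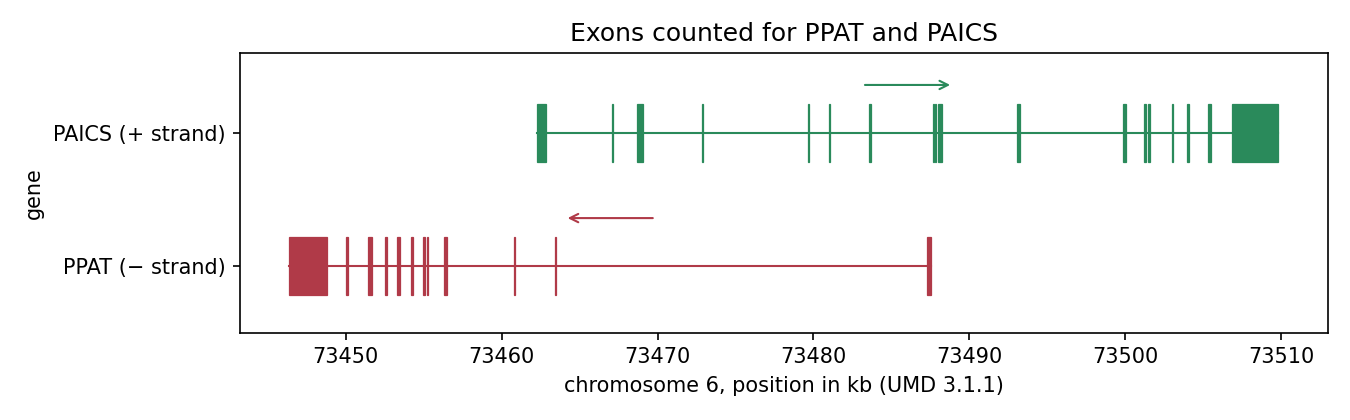
Exon blocks counted for PAICS (plus strand, top) and PPAT (minus strand, bottom) along chromosome 6 of UMD 3.1.1, position in kb, with arrows for the direction of transcription. The 5′ end of PPAT lies 100 bases from the PAICS block that starts at 73487653, and 7 PAICS blocks lie within the span of PPAT.

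Across the 10 samples, log2 CPM of PPAT and PAICS had a Pearson's r of 0.629 (permutation p = 0.0520, 0.104 after Benjamini-Hochberg adjustment over the 2 relations computed) and a Spearman's rho of 0.576 (permutation p = 0.0892, adjusted 0.178). Without CON2 and CON3, the samples farthest from the median of PPAT, r was 0.787 (permutation p = 0.0215, not adjusted). With the diet means removed r was 0.600, and within the diets it was 0.599 in CON and 0.765 in MET. A trend of each sample on gene length was also removed, after which r was 0.729 (permutation p = 0.0164, adjusted 0.0327). The side of 0.05 on which the relation fell thus depended on that step and, before adjustment, on CON2 and CON3. Both genes were below their mean in CON1+4, as were all 10 genes, and above it in CON6, as were 9 of 10. Among the 10 genes only this relation and that of IMPDH1 with IMPDH2 were computed. The r is therefore not shown to be particular to PPAT and PAICS. The PAICS level was 1.21 to 1.66 times the PPAT level in FPKM over the samples, on average 1.43 ± 0.182 in CON and 1.48 ± 0.180 in MET.

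The other genes of the common route showed small differences in means. GART, whose protein carries 3 activities of the early steps including a formyl transfer from folate (chromosome 1, 1265743 to 1292033), ranged from 30.0 to 48.8 CPM in CON and from 33.4 to 47.5 CPM in MET. Its log2 fold change was −0.04 (−0.32 to 0.23) over the 12 libraries and −0.05 (−0.37 to 0.27) over the 10 samples, but over the 12 libraries the sign turned to 0.02 without CON6, so no direction can be given. PFAS (chromosome 19, 28495769 to 28511861) was between 5.66 and 9.15 CPM in CON and between 3.81 and 7.37 CPM in MET. MET6 and MET2 were below all CON samples, and CON3 and CON6 were the highest. Its log2 fold change was −0.19 (−0.61 to 0.24) over the 12 libraries and −0.27 (−0.74 to 0.20) over the 10 samples, the widest interval of the 10 genes in either fit. Over the 12 libraries it was −0.11 without CON3, −0.11 without CON6, −0.08 without MET6 and −0.09 with the trend on gene length removed. Over the 10 samples it was −0.14 without MET6 and −0.17 with that trend removed.

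ADSL (chromosome 5, 112192430 to 112209093), the lyase that releases fumarate in both the common route and the AMP branch, was at 35.3 to 50.2 CPM in CON and at 40.3 to 56.0 CPM in MET. MET2, MET4 and MET6 were above all CON samples. Its log2 fold change was 0.16 (−0.12 to 0.43) over the 12 libraries and 0.15 (−0.14 to 0.44) over the 10 samples. Over the 12 libraries it was 0.10 without CON1 or with the trend on gene length removed. Over the 10 samples it was 0.08 without CON1+4 and 0.10 with that trend removed. ATIC (chromosome 2, 103847180 to 103870755), which adds the last formyl group and closes the ring, lay at 56.7 to 79.9 CPM in CON and at 59.9 to 68.2 CPM in MET, with all MET samples inside the CON range. Its log2 fold change of −0.03 (−0.24 to 0.19) over the 12 libraries and −0.06 (−0.30 to 0.19) over the 10 samples turned to 0.05 and 0.03 without CON6, the highest sample, so here too no direction can be given.

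IMPDH1 and IMPDH2 code for both forms of IMP dehydrogenase, which oxidises IMP on the way to GMP and sets the pace of that branch. IMPDH1 (chromosome 4, 93382311 to 93399673, minus strand) was at 7.71 CPM in CON1+4, 6.16 in CON2, 7.78 in CON3, 7.40 in CON5 and 7.58 in CON6, and at 8.06 CPM in MET1+3, 13.3 in MET2, 9.90 in MET4, 11.0 in MET5 and 7.11 in MET6. Of the MET samples 4 were above all CON samples, MET2 the most, while MET6 fell among the CON samples. The means were 7.32 ± 0.667 CPM in CON and 9.86 ± 2.43 CPM in MET (SD, n = 5 each), with 49 to 136 reads per library behind them. The fold change was 1.29 over the 12 libraries (95% confidence interval 1.03 to 1.63; log2 0.37, SE 0.16) and 1.34 over the 10 samples (1.03 to 1.75). With an adjusted p of 0.201 and 0.273 by the quasi-likelihood test of edgeR (Benjamini-Hochberg), it passed in neither. Leaving out single libraries of the 12 moved the log2 fold change between 0.25 without MET2 and 0.44 without MET6. Without MET2 its SE was 0.14 and its adjusted p 0.344 by the same edgeR test, against 0.160 without MET6. The size of the difference thus depended on MET2, the highest sample. IMPDH1 shares 174 exonic bases with LOC537848 on the opposite strand, which counting by strand keeps apart.

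IMPDH2 (chromosome 22, 51535276 to 51540164) was at 37.2 CPM in CON1+4, 42.6 in CON2, 47.0 in CON3, 42.8 in CON5 and 57.6 in CON6, and at 38.9 CPM in MET1+3, 56.3 in MET2, 64.6 in MET4, 59.6 in MET5 and 62.2 in MET6. MET4, MET5 and MET6 exceeded every CON sample, MET2 all but CON6, and MET1+3 was among the lowest of either diet. The fold change was 1.21 (0.957 to 1.53) over the 12 libraries and 1.24 (0.975 to 1.57) over the 10 samples, with an adjusted p of 0.342 and 0.354 by the quasi-likelihood test of edgeR (Benjamini-Hochberg).

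Both IMPDH genes averaged higher in MET, and MET4 and MET5 were above all CON samples for both. MET6 was the lowest MET sample for IMPDH1 and second only to MET4 for IMPDH2. Their log2 CPM had a Pearson's r of 0.475 over the 10 samples (permutation p = 0.168, adjusted 0.168) and a Spearman's rho of 0.236 (permutation p = 0.514, adjusted 0.514). Without MET2 and MET5, the samples farthest from the median of IMPDH1, r was 0.359, and with the diet means removed it was 0.207. IMPDH2 was the more abundant form in FPKM in all 10 samples, by 6.01 times in MET2 to 12.4 times in MET6. This ratio averaged 8.84 ± 1.52 in CON and 8.44 ± 2.51 in MET.

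GMPS, the amidotransferase that completes GMP (chromosome 1, 112629083 to 112704976, minus strand), was the member of this branch that averaged lower in MET. Its level was 39.2 CPM in CON1+4, 58.2 in CON2, 50.8 in CON3, 53.2 in CON5 and 59.7 in CON6, and 38.1 CPM in MET1+3, 42.9 in MET2, 44.7 in MET4, 38.3 in MET5 and 49.99 in MET6. The CON samples apart from CON1+4 were all above the MET samples, and MET1+3 and MET5 were below CON1+4. The fold change was 0.839 (0.695 to 1.01) over the 12 libraries and 0.820 (0.671 to 1.002) over the 10 samples, with an adjusted p of 0.275 and 0.309 by the quasi-likelihood test of edgeR (Benjamini-Hochberg). With the trend on gene length removed, the fold change over the 12 libraries was 0.882 (0.716 to 1.09). On the log2 scale it was −0.25, and −0.32 to −0.20 with single libraries left out.

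ADSS2 codes for the widely expressed adenylosuccinate synthase that opens the AMP branch (chromosome 16, 33528215 to 33561118). It was at 10.6 to 16.0 CPM in CON, where CON3 stood above the rest, and at 10.1 to 12.5 CPM in MET, where MET1+3, MET5 and MET6 were below all CON samples. The log2 fold change was −0.13 (−0.41 to 0.16) over the 12 libraries and −0.14 (−0.44 to 0.17) over the 10 samples. Without CON3 it was −0.03 over the 12 libraries and −0.02 over the 10 samples, and without MET3 it was −0.07. ADSS1, the form best known from muscle, averaged 3.66 FPKM, and the ratio of ADSS2 to ADSS1 in FPKM ran from 0.815 in CON1+4 to 1.95 in MET5.

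Genes listed with the supply of PRPP and folate-bound carbon did not pass either. The lists do not hold suppliers alone, so their medians give no direction of supply. Of 4 genes of PRPP supply, 0 passed over the 12 libraries, with a median log2 fold change of −0.09 (−0.03 over the 10 samples, where PRPSAP2 turned from −0.03 to 0.04), and the most abundant in FPKM was PRPSAP1 at 13.4 FPKM, which codes for a protein bound to PRPP synthetase. Its log2 fold change was −0.15, and −0.09 over the 10 samples. Of 8 genes of folate-bound carbon supply, 0 passed and 7 of the log2 fold changes were below 0 (median −0.17, and −0.14 over the 10 samples). ALDH1L1, which oxidises formyl-folate to carbon dioxide, was the most abundant of them at 165.8 FPKM, with a log2 fold change of −0.09, and −0.05 over the 10 samples.

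Calls were found in other lists of nucleotide genes, all of them over the 12 libraries by the quasi-likelihood test of edgeR (Benjamini-Hochberg). Of 5 salvage genes 1 passed, APRT, which returns adenine to AMP. It was at 97.5 CPM in CON1+4, 98.4 in CON2, 74.5 in CON3, 85.4 in CON5 and 101.5 in CON6, and at 147.9 CPM in MET1+3, 129.6 in MET2, 137.0 in MET4, 99.7 in MET5 and 145.1 in MET6. MET5 fell between CON2 and CON6, and the other 4 MET samples were above all CON samples. Its log2 fold change was 0.54 over the 12 libraries (SE 0.12, adjusted p 0.0582 by the edgeR test) and 0.53 over the 10 samples, where it did not pass that test (SE 0.14, adjusted p 0.175).

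Of 18 genes of nucleotide interconversion 16 were tested and 2 passed, both higher in MET, with a median log2 fold change of 0.17 over the list (0.18 over the 10 samples). NME1, a kinase that makes nucleoside triphosphates, was at 30.9 ± 2.88 CPM in CON and 47.98 ± 7.24 CPM in MET (log2 0.57, SE 0.11, adjusted p 0.0452 by the quasi-likelihood test of edgeR (Benjamini-Hochberg); over the 10 samples log2 0.63, adjusted p 0.156). GUK1, which phosphorylates GMP to GDP and so follows GMPS, was at 55.5 ± 3.71 and 71.6 ± 5.68 CPM (log2 0.36, SE 0.08, adjusted p 0.0674 by the same edgeR test; over the 10 samples log2 0.37, adjusted p 0.175). These 2 genes and NME2 (7.99 ± 0.788 and 10.3 ± 1.37 CPM, log2 0.37, adjusted p 0.118 by the same edgeR test, and 0.231 over the 10 samples) had every MET sample above every CON sample, as did 1.94% of all tested genes. With the trend on gene length removed, the log2 fold change of NME2 over the 12 libraries was 0.20. AMPD1 and GMPR had too few reads to be tested.

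In purine breakdown 1 of 10 tested genes passed, NT5C, a cytosolic nucleotidase that prefers deoxynucleotides. It was at 61.7 ± 6.19 CPM in CON and 93.5 ± 20.1 CPM in MET (log2 0.61, SE 0.13, adjusted p 0.0528 by the quasi-likelihood test of edgeR (Benjamini-Hochberg); over the 10 samples log2 0.60, adjusted p 0.174). It was highest in MET6 at 123.6 CPM, while MET5 at 67.7 CPM fell among the CON samples. PNP, which splits inosine and guanosine, was the most abundant of the list at 261.9 FPKM with a log2 fold change of −0.03 (−0.12 over the 10 samples), and NT5C1A had no read in any library.

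Of 5 genes of de novo pyrimidine synthesis 0 passed, though 4 of the log2 fold changes were above 0 (median 0.38, and 0.36 over the 10 samples). The most abundant was DHODH, the mitochondrial dehydrogenase of that route, at 13.9 FPKM with a log2 fold change of 0.38 (adjusted p 0.308 by the quasi-likelihood test of edgeR (Benjamini-Hochberg); over the 10 samples log2 0.36, adjusted p 0.439). For the 5 genes of deoxynucleotide supply all log2 fold changes were below 0 (median −0.50, and −0.34 over the 10 samples), and 1 passed. This was TYMS, which makes thymidylate and takes its carbon from folate, at 9.68 ± 1.74 CPM in CON and 6.25 ± 1.01 CPM in MET. Every MET sample was below every CON sample, as for 1.77% of all tested genes, but MET1+3 at 7.287 CPM barely so against CON5 at 7.297 CPM. The log2 fold change of TYMS was −0.59 (SE 0.16, adjusted p 0.0849 by the same edgeR test; over the 10 samples log2 −0.62, adjusted p 0.175). RRM1, the most abundant of that list at 33.5 FPKM, had a log2 fold change of −0.06 (−0.13 over the 10 samples).

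Among 6 regulators 1 passed, MYC, a transcription factor known to bind many nucleotide synthesis genes. It was at 14.0 CPM in CON1+4, 29.5 in CON2, 22.6 in CON3, 10.2 in CON5 and 17.9 in CON6, and at 6.09 CPM in MET1+3, 9.66 in MET2, 5.99 in MET4, 13.9 in MET5 and 7.42 in MET6. MET5 reached past CON5, and the other 4 MET samples were below all CON samples. The log2 fold change was −1.14 (SE 0.27, adjusted p 0.0684 by the quasi-likelihood test of edgeR (Benjamini-Hochberg); over the 10 samples log2 −1.13, adjusted p 0.175). ATF4, a factor of the response to amino acid lack and the most abundant of the list at 249.6 FPKM, had a log2 fold change of 0.23 (0.28 over the 10 samples) and did not pass.

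Over the 10 samples none of these 6 genes passed the edgeR test, with log2 fold changes of about the same size as over the 12 libraries. DESeq2 over the same 10 samples passed all 6, with an adjusted p of 0.00313 for NME1, 0.0200 for GUK1, 0.0211 for NT5C, 0.0217 for APRT, 0.0244 for MYC and 0.0530 for TYMS, so the outcome over the 10 samples depended on the tool. The study lists genes as differentially expressed from these same libraries, so the calls are no independent evidence. Leaving out a single library also ended calls of the same edgeR test. APRT (adjusted p 0.108 and 0.117) and NT5C (0.104 and 0.115) lost theirs without CON1 and without CON4, and NME1 without CON1 (0.104). GUK1 lost its call without CON1 (0.118), CON4 (0.124), MET1 (0.101) or MET6 (0.102). TYMS passed in 2 of 12 such fits, those without CON5 (0.0786) and MET1 (0.0826), and was otherwise between 0.104 and 0.150. MYC passed in 5 of 12, and was at 0.113 without CON1, 0.104 without CON3, 0.117 without CON4, 0.108 without MET1, 0.102 without MET3, 0.105 without MET4 and 0.104 without MET6. When the trend on gene length was removed, NME1 (0.126, its log2 fold change going from 0.57 to 0.36) and APRT (0.106) did not pass the edgeR test over the 12 libraries. GUK1 and TYMS did not pass it with library size only (0.115 and 0.172) or with no filter (0.1015 and 0.131). With a replicate block in the fit none of the 6 genes passed, from 0.150 for APRT to 0.179 for GUK1, at log2 fold changes of about the same size.

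Markers of cell types were set beside these values. The 6 proliferation markers summed to 66.2 ± 27.8 CPM in CON and 39.1 ± 9.12 CPM in MET, with 42.6 CPM in CON1+4, 84.7 in CON2, 105.6 in CON3, 44.2 in CON5 and 53.9 in CON6, and with 54.1 CPM in MET1+3, 39.5 in MET2, 31.3 in MET4, 32.3 in MET5 and 38.4 in MET6. The MET samples were low but for MET1+3, which fell among the CON samples, and all 6 markers had a log2 fold change below 0 (median −0.94, and −1.19 over the 10 samples). CDK1 (log2 −1.66, and −1.89 over the 10 samples, adjusted p 0.0766) and CCNB1 (log2 −1.85, and −2.11 over the 10 samples, adjusted p 0.0719), kinase and cyclin of mitosis, passed over the 12 libraries but not over the 10 samples (0.174 and 0.172) by the quasi-likelihood test of edgeR (Benjamini-Hochberg), and PCNA was the most abundant of the list at 9.96 FPKM. With the trend on gene length removed CDK1 did not pass the edgeR test over the 12 libraries either (log2 −1.61, adjusted p 0.104). MYC, TYMS and the other genes of deoxynucleotide supply were lower in MET on average along with these markers, and the part of the markers in those results was not tested.

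The 5 hepatocyte markers summed to 110900 ± 13570 CPM in CON and 90260 ± 13420 CPM in MET, and 0 passed. Of the log2 fold changes over the 12 libraries 2 were above 0 and 3 below (median −0.13). Over the 10 samples the median was −0.14, and TTR turned from 0.07 to −0.02. The lower sum in MET came mostly from ALB, at 62220 CPM in CON and 39450 CPM in MET (log2 −0.65, adjusted p 0.107 by the edgeR test; 0.238 over the 10 samples), whereas FGB was at 35450 and 38690 CPM. Their sum was 123200 CPM in CON1+4, 118600 in CON2, 90220 in CON3, 104300 in CON5 and 118300 in CON6, and 86520 CPM in MET1+3, 72000 in MET2, 90340 in MET4, 109400 in MET5 and 93090 in MET6. The diets overlapped, with the lowest sum in MET2 and the highest in CON1+4. Their part in the results was not tested.

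Markers of other cells were also counted. Of 5 stellate and fibroblast markers 1 passed over the 12 libraries, LUM (log2 −0.70, adjusted p 0.0985; 0.211 over the 10 samples and 0.121 with the trend on gene length removed, by the quasi-likelihood test of edgeR (Benjamini-Hochberg)), with a summed level of 649.9 ± 110.2 CPM in CON and 518.8 ± 104.0 CPM in MET and COL3A1 most abundant at 63.4 FPKM. All 5 had a log2 fold change below 0 (median −0.29, and −0.37 over the 10 samples). By contrast all 6 macrophage markers had one above 0 (median 0.20, and 0.17 over the 10 samples), as did the 3 lymphocyte markers tested (median 0.18, and 0.20). The 6 macrophage markers (914.0 ± 113.3 and 990.2 ± 146.1 CPM, led by MARCO at 289.1 FPKM), the 5 endothelial markers (283.4 ± 61.6 and 236.1 ± 47.5 CPM, led by STAB2 at 15.7 FPKM) and the 4 lymphocyte markers (42.2 ± 10.0 and 47.3 ± 4.19 CPM, led by PTPRC at 6.43 FPKM) held no call. Nor did the 4 bile duct markers (52.7 ± 11.3 and 41.9 ± 17.0 CPM, led by EPCAM at 12.2 FPKM) or the 6 erythroid markers. The erythroid sum was uneven, from 7.53 CPM in CON1+4 to 963.9 CPM in CON2, and HBB at 424.1 FPKM was its most abundant gene. HBA, HBM, SLC4A1 and AHSP of the erythroid list, SOX9 of the bile duct list and CD79A of the lymphocyte list had too few reads to be tested. Their part in the results was not tested.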

How the data were processed

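RNA-seq libraries of liver from 12 calves were analysed, 6 per diet by their labels. The authors trimmed reads (Trimmomatic 0.33 per the labels), aligned them to UMD 3.1.1 with STAR 2.5.3a and counted them by strand with featureCounts (Subread 1.5.2), without reads of several places or genes, and deposited raw counts per Entrez gene ID. Symbols came from a RefSeq table of ARS-UCD2.0, used for names only, and coordinates from the count files. A sequence was given the chromosome on which that table places most of its genes (90.8% or more).

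Counts were analysed with edgeR 4.0.16 in R 4.3.3, using the default filter by diet (minimum count 10, minimum total 15), TMM factors and the quasi-likelihood test on diet alone, with Benjamini-Hochberg adjustment over all genes tested and a threshold of 0.10. The study names edgeR, TMM, this test and the threshold; the filter settings are those of edgeR, as the study gives none. Confidence intervals (95%) are from the coefficient, its SE and the t distribution of the fit. For means, the CPM of near-identical libraries was averaged, and for the fit over 10 samples their reads were summed. The number of reads below which a level was not read, 3, equals 0.289 to 0.362 CPM. This floor covers counting error alone, because PCR copies of a molecule were not told apart. Correlations used log2 CPM with a prior count of 2 and two-sided permutation tests with 100000 resamples.

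Alternatives were RLE factors, library size only, DESeq2 1.42.0, voom of limma 3.58.1, no filter, removal of a loess trend on gene length (span 0.5), a replicate block and leaving out each library. DESeq2 or the length trend with pairs summed, and leaving out each of the 10 samples, were chosen after seeing the data. The fits were tested on simulated data in which all libraries were independent. That test therefore does not cover the near-identical pairs within the 12 libraries.

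All 10 genes were given in full. From each other list, the genes named were those that passed over the 12 libraries, the most abundant in FPKM and any whose diets did not overlap. Of the genes this rule chose, 1 is not reported here. The 10 genes, though taken by name, and the lists were chosen with earlier results of these data known. PCR, methylation, protein, enzyme and metabolite data were not analysed here, and promoter and protein sequences were not used here. Figures were drawn with Python 3.11.15.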

Additional observations from a re-analysis of the deposited data

Results flagged for a closer look

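In 48 groups of 5 samples, 1 gene and diet each, 2 held a sample whose gap to the nearest of the other 4 was above 0.71 of the range of the group (Dixon's critical value), at 0.713 and 0.767. Chance gives this in about 1 in 20 groups. The level of ATIC was 68.24 CPM in MET6, where the other MET samples lay between 59.9 and 62.3 CPM. IMPDH1 was at 6.159 CPM in CON2, where the other CON samples lay between 7.40 and 7.78 CPM. No explanation was weighed for either.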

How the results depend on the processing

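No de novo purine synthesis gene passed at an FDR of 0.10 under any alternative run, and 8 of the 10 kept the direction of their mean difference in all of them. GART turned to 0.01 on the log2 scale with the gene length trend removed (0.01182), to 0.01121 with it removed and the pairs summed, to 0.02378 without CON6, and with pairs summed to 0.02743 without CON6 and 0.000693 without MET6, within ranges of −0.1135 to 0.02378 and −0.1396 to 0.02743 over the libraries or samples left out in turn. ATIC turned to 0.002456 with library size only, to 0.04951 without CON6 and, with pairs summed, to 0.02848 without CON6, within ranges of −0.0587 to 0.04951 and −0.1012 to 0.02848. The cause was not tested. IMPDH1 stayed between 0.25 and 0.52 with an adjusted p of at least 0.160 by edgeR or the other tools.

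The count of all genes passing, 583, was 107 with library size only, 1314 with DESeq2, 238 with no filter, 245 with the length trend removed and 0 with the pairs summed, with or without the length trend. It was between 26 and 565 when 1 of the 12 libraries was left out and between 0 and 39 when 1 of the 10 samples was. The cause was not tested. The r of PPAT with PAICS was 0.7286 after length correction. With the replicate block the count was 6, but same-numbered libraries did not deviate together (correlations of 0.148, 0.037, −0.132, −0.011, −0.104 and −0.190), so the numbers pair nothing.

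PFAS (37 to 88 reads per library) and IMPDH1 (49 to 136) were the least covered. For the 10 genes the 95% intervals of the log2 fold change reached 0.21 to 0.42 to either side over the 12 libraries and 0.24 to 0.47 over the 10 samples.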
